A study of Mus musculus with 32 samples.

Results

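The 9 genes described here encode the core of transforming growth factor beta (TGF-beta) signaling, namely the ligands Tgfb1, Tgfb2 and Tgfb3, the receptors Tgfbr1, Tgfbr2 and Tgfbr3, and the SMAD proteins Smad2, Smad3 and Smad7. They were picked by gene name, with no threshold on their values but with earlier results of these data known, and all 9 were present among the 22329 gene symbols of the expression table. MC38 is a mouse line that the labels call a colon adenocarcinoma line, and the series sets the parental line beside a derivative that is resistant to anti-PD-1, an antibody against the PD-1 checkpoint receptor of T cells. The 32 RNA-seq libraries fell into 4 groups: 13 parental and 12 resistant tumors, grown under the skin of C57BL6/J mice that received no treatment, and 2 parental and 5 resistant cultures. The labels do not give the age or sex of the mice, how resistance was obtained, or whether the resistant line is 1 clone. Nor do they state that the cultured libraries are separate cultures, so a p-value that involves them reflects only how far these samples spread, which could be technical.

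As background, the 3 ligands are secreted as latent complexes and released outside the cell. Active ligand binds the type II receptor Tgfbr2, which phosphorylates the type I receptor kinase Tgfbr1, while Tgfbr3, called betaglycan, is a co-receptor without kinase activity that presents ligand and is known for its role in the binding of Tgfb2. Activated Tgfbr1 phosphorylates Smad2 and Smad3, which enter the nucleus with Smad4 and regulate target genes, among them Smad7, the inhibitory SMAD that brings ubiquitin ligases to Tgfbr1 and closes a negative feedback loop. In tumors the pathway is known for its effects on fibroblasts, matrix production and the exclusion of T cells.

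Values are TPM, a share of each library's transcripts scaled by gene length, so levels of different genes can be set side by side. Differences were tested with limma on log2(TPM + 1), a scale that understates changes of low genes, and a gene was called when its p-value, adjusted by the Benjamini-Hochberg method over all genes tested, was below 0.05. Positive log2 differences mean higher in the resistant line or higher in tumors.

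Within groups, the correlation of log2 levels between libraries ranged from 0.931 to 0.989 in parental tumors and from 0.968 to 0.989 in resistant tumors. The 4 parental tumors numbered 2, 3, 7 and 8 stood apart in a GC index, the median over GC-rich genes less the median over GC-poor genes of the log2 level relative to each gene's mean over the 25 tumors: they lay between 0.60 and 0.81, the other 9 parental tumors between -0.27 and 0.26, and the resistant tumors between -0.54 and 0.25. The summed level of 4 leukocyte markers spanned 163 to 589 TPM over parental and 199 to 383 TPM over resistant tumors, and that of 6 macrophage markers was 153 to 820 and 172 to 369 TPM. Of these, 2 of 4 leukocyte and 5 of 6 macrophage markers fell in resistant tumors. Among 5 tested pericyte markers 2 rose, and the list summed to 14.9 to 52.6 TPM over parental and 55.1 to 128.5 TPM over resistant tumors. The part of these cell types in the results on the 9 genes was not tested. In the cultures, Ptprc and Cd53 (leukocyte) stayed under 1 TPM in every library, as did Adgre1, Csf1r, C1qa, C1qc and Mrc1 of the macrophage list. The macrophage marker C1qb did not stay under 1 TPM in every resistant culture. The other 2 leukocyte markers, Coro1a and Laptm5, averaged at least 1 TPM in resistant cultures. The leukocyte list summed to 2.43 to 5.94 TPM in parental and 17.4 to 131 TPM in resistant cultures. The labels name an adenocarcinoma line, yet all 6 epithelial markers, Epcam, Krt8, Krt18, Krt19, Cdh1 and Cdx2, were under 1 TPM in every culture.

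Tgfb1 and Tgfb2 are encoded by separate genes that behaved differently between the lines, as described next, so the DNA just before their start sites is shown. The windows are the 250 bases upstream of the RefSeq start on mouse build GRCm38.p6, written 5′ to 3′ along the gene. The Tgfb1 window lies on chr7:25686752-25687001 (forward strand), and the Tgfb2 window on chr1:186705990-186706239 (reverse strand). RefSeq windows matched 5 of the 9 genes, Tgfb1, Tgfb2, Tgfbr1, Tgfbr2 and Smad3. Capitals mark matches, on either strand, to the GC box GGGCGG in Tgfb1, and in Tgfb2 to the TATA box TATAAA, the E box CACGTG, the core TGACG of the cyclic AMP response element, the CCAAT box and the SMAD element CAGAC.
Tgfb1: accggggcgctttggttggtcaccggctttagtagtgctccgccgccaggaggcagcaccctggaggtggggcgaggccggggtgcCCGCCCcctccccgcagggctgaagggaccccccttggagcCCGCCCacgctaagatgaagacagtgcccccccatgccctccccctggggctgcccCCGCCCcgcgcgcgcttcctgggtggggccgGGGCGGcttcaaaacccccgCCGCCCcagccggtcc
Tgfb2: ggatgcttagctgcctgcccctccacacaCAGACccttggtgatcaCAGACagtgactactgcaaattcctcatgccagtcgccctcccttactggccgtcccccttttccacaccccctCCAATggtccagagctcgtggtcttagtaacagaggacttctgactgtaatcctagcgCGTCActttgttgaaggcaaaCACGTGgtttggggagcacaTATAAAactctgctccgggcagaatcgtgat
The Tgfb1 window held 75.2% G and C and 5 GC boxes, 1 on the gene's strand at 36 bases before the start and 4 on the other strand at 164, 123, 67 and 16 bases. It held no TATA box. The Tgfb2 window held 53.6% G and C, with the TATA box 31 bases before the start, the E box at 51, the cyclic AMP element core on the other strand at 72, the CCAAT box at 130 and the SMAD element at 221 and 204. Among 32851 mouse promoter windows of this length, searched on both strands, the TATA box occurred in 12.4%, the E box in 6.02%, the cyclic AMP element core in 17.8%, the CCAAT box in 33.8%, the SMAD element in 42.2% and the GC box in 32.7%. The palindrome GTCTAGAC, a SMAD site found in 0.167% of windows, occurred in neither. These matches describe the letters and no binding was measured.

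In tumors, the resistant line differed from the parental line in 4 of the 9 genes: Tgfb2, Smad2 and Smad7 rose, Tgfbr3 fell, and 5 genes did not pass the test. Over all 12095 genes tested, 16.3% were called higher and 13.9% lower, and the median log2 difference was 0.26 over the 9 genes against 0.04 over all genes. That median of the 9 moved with the setting, to 0.06 with array weights, 0.09 without the 4 parental tumors of high GC index and 0.45 with the leukocyte gene Ptprc in the fit. None of the 9 separated the 2 tumor groups without overlap, and 1.04% of all genes tested did. All 4 calls held under each of the 35 alternative settings tried.

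Tgfb1, the most abundant ligand in every library, ran from 110 to 204 TPM over the parental tumors (median 132 TPM) and from 99.5 to 246 TPM over the resistant ones (median 131 TPM). The ranges lay over each other. On the log2 scale the difference was 0.05 (SE 0.13, 95% interval -0.21 to 0.32, limma adjusted p = 0.79), or 0.30 (adjusted p = 0.0271) once the GC index entered the fit.

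Tgfb2, the ligand with the strongest need for betaglycan, ran from 3.65 to 11.7 TPM over the parental tumors (median 6.15 TPM) and from 9.19 to 19.9 TPM over the resistant ones (median 15.9 TPM). Resistant tumors were high: 9 of 12 lay above the highest parental tumor and 12 of 12 above the parental mean. The means were 6.71 ± 2.36 (SD, n = 13) and 14.9 ± 3.35 TPM (SD, n = 12), a ratio of 2.21, and the log2 difference was 1.07 (SE 0.16, limma adjusted p = 1.08e-05), between 1.01 and 1.18 over the alternatives.

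Tgfb3 ran from 3.71 to 24.6 TPM over the parental tumors (median 13.1 TPM) and from 10.1 to 19.8 TPM over the resistant ones (median 14.7 TPM). The parental range enclosed the resistant one. The 4 parental tumors of high GC index were the low ones, at 3.71 to 9.20 TPM, and did not overlap the other 9 at 12.8 to 24.6 TPM. The difference between the lines, 0.26 on the log2 scale (SE 0.20, limma adjusted p = 0.333), turned to -0.11 without these 4 tumors. With Ptprc in the fit it was 0.54 (limma adjusted p = 0.00803), the only 1 of 35 alternatives that passed, so its direction depended on the setting.

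Because Tgfb1 dominated, the 3 ligands together summed to 165 ± 26.5 TPM (SD, n = 13) in parental and 184 ± 46.0 TPM (SD, n = 12) in resistant tumors. Tgfb2 made up 4.05% ± 1.26 of the ligand sum in parental and 8.36% ± 2.31 in resistant tumors, while Tgfb1 made up 87.6% ± 4.06 and 83.0% ± 4.06. In culture the share of Tgfb2 was 2.49% in parental and 5.88% in resistant libraries.

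**Figure D1:**
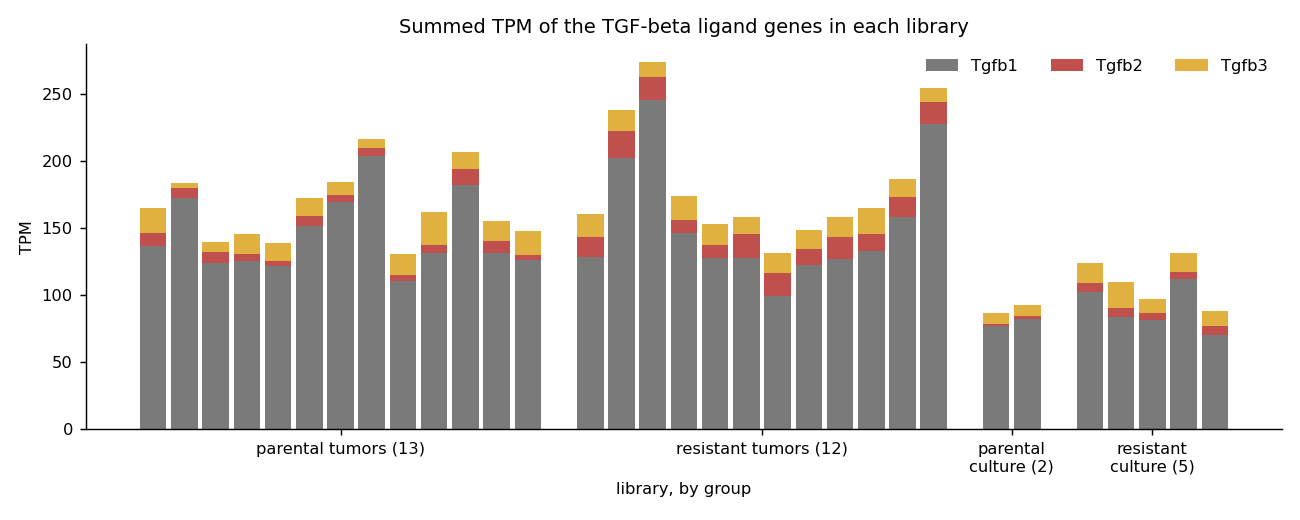
Stacked bars of the TPM of Tgfb1, Tgfb2 and Tgfb3 in each of the 32 libraries, by group, from 0. Tgfb1 makes up most of every bar, and the Tgfb2 segment is thicker in resistant tumors (5.61 to 12.97% of the ligand sum) than in parental tumors (2.47 to 5.90%).

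Among the receptors, Tgfbr1, the type I kinase, ran from 7.50 to 51.97 TPM over the parental tumors (median 32.97 TPM) and from 21.4 to 52.8 TPM over the resistant ones (median 36.5 TPM). The groups overlapped, and the 4 parental tumors of high GC index, at 7.50 to 17.2 TPM, again lay below the other 9, at 27.4 to 51.97 TPM. Resistant minus parental, the log2 difference was 0.35 (SE 0.24, limma adjusted p = 0.275). It was -0.10 (adjusted p = 0.683) without those 4 tumors, -0.22 (adjusted p = 0.210) with the GC index in the fit, and 0.79 (adjusted p = 4.83e-05) with the level of the leukocyte gene Ptprc in the fit, so its direction depended on the setting.

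Tgfbr2, the ligand-binding type II kinase, ran from 20.8 to 53.04 TPM over the parental tumors (median 26.5 TPM) and from 22.6 to 42.8 TPM over the resistant ones (median 26.9 TPM). The medians were close and the ranges overlapped throughout. Its log2 difference was -0.08 (SE 0.14, 95% interval -0.37 to 0.20, limma adjusted p = 0.679), and it was 0.09 without the 4 parental tumors of high GC index.

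Tgfbr3, the co-receptor, ran from 3.81 to 27.3 TPM over the parental tumors (median 11.6 TPM) and from 1.20 to 5.38 TPM over the resistant ones (median 2.76 TPM). Resistant tumors were low: 11 of 12 lay under the lowest parental tumor and 12 of 12 under the parental mean. The means were 14.7 ± 6.92 (SD, n = 13) and 2.75 ± 1.08 TPM (SD, n = 12), which is 5.36 times lower, and the log2 difference was -1.98 (SE 0.22, limma adjusted p = 1.51e-07). As a share of the 3 receptors' summed TPM, Tgfbr3 was 19.6% ± 9.95 in parental and 4.11% ± 1.76 in resistant tumors. In these bulk samples, fewer cells of a type and less RNA per cell cannot be told apart.

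**Figure D2:**
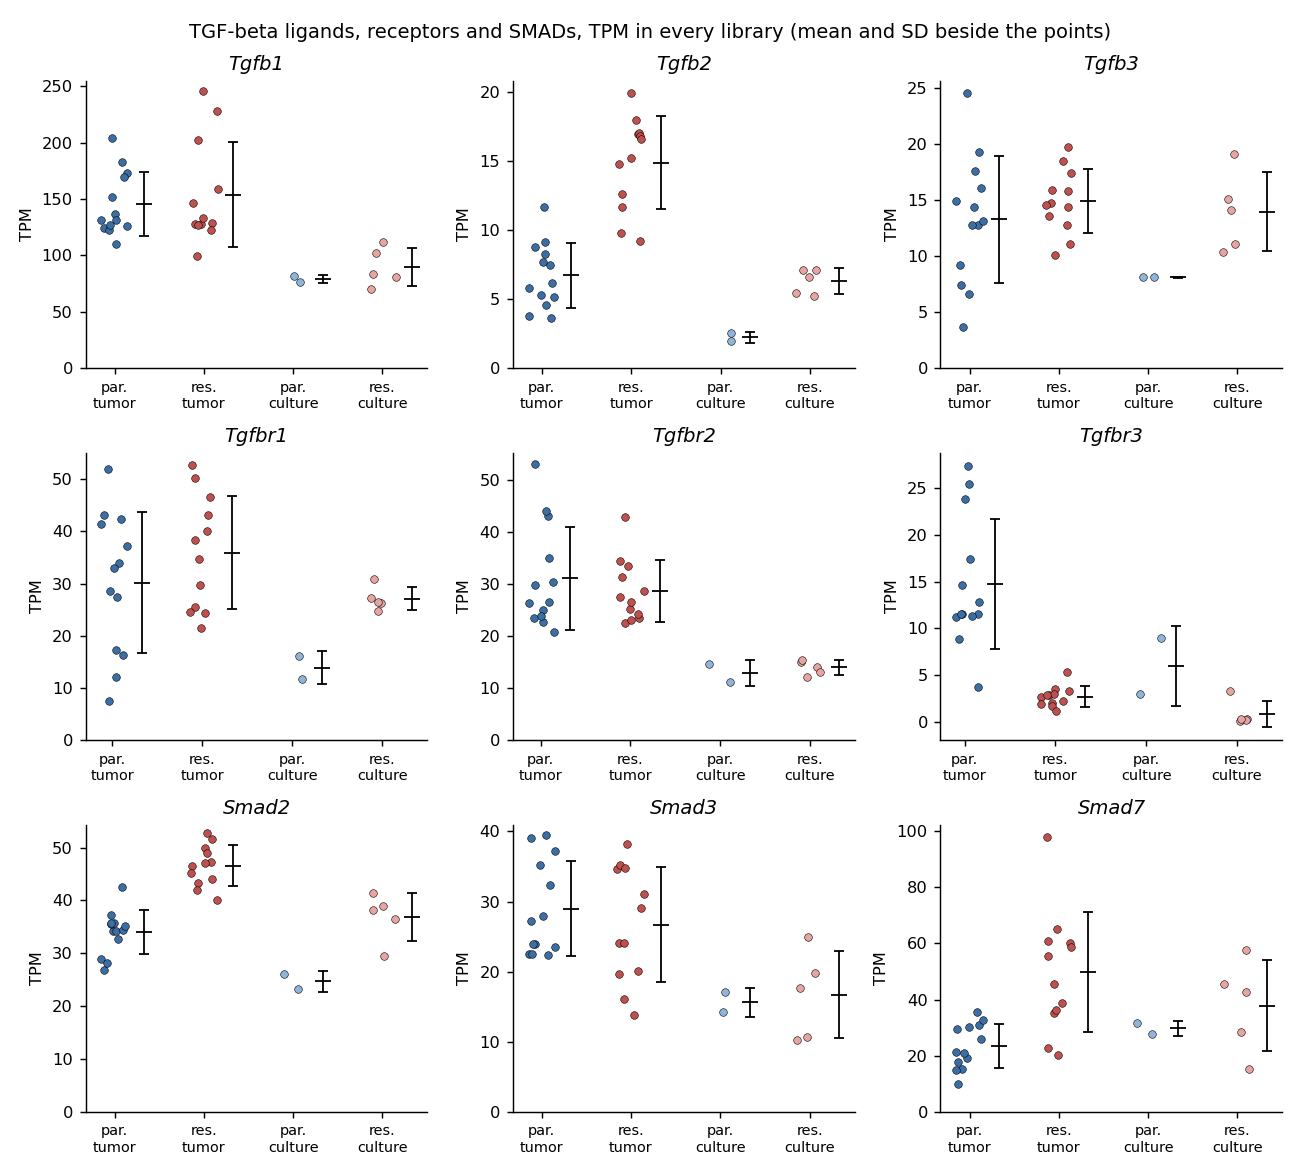
TPM of each of the 9 genes in every library (points, linear axes), by group, with the group mean and SD drawn beside the points. Resistant tumors sit low for Tgfbr3 (1.20 to 5.38 TPM against 3.81 to 27.3 TPM) and high for Tgfb2, Smad2 and Smad7. The resistant cultures lie above the parental ones for Tgfb2, Tgfb3, Tgfbr1 and Smad2.

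Of the SMADs, Smad2 ran from 26.9 to 42.6 TPM over the parental tumors (median 34.5 TPM) and from 40.1 to 52.8 TPM over the resistant ones (median 46.8 TPM). Resistant tumors were high, with 10 of 12 above the highest parental tumor, and 12 of 12 above all 9 parental tumors of lower GC index. The means were 34.0 ± 4.14 (SD, n = 13) and 46.6 ± 3.87 TPM (SD, n = 12), a ratio of 1.37, and the log2 difference was 0.45 (SE 0.08, limma adjusted p = 6.20e-05), between 0.40 and 0.48 over the alternatives.

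Smad3, the other receptor-activated SMAD, ran from 22.3 to 39.5 TPM over the parental tumors (median 27.2 TPM) and from 13.8 to 38.2 TPM over the resistant ones (median 26.6 TPM). The ranges overlapped. Its log2 difference was -0.15 (SE 0.15, 95% interval -0.46 to 0.17, limma adjusted p = 0.494). The ratio of Smad2 to Smad3 was 1.23 ± 0.32 in parental (SD, n = 13) and 1.93 ± 0.67 in resistant tumors (SD, n = 12).

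Smad7, the inhibitory SMAD, ran from 9.94 to 35.6 TPM over the parental tumors (median 21.5 TPM) and from 20.2 to 98.0 TPM over the resistant ones (median 50.6 TPM). Most resistant tumors were high, 9 of 12 above the highest parental tumor and 10 of 12 above the parental mean, while the resistant group was also the more variable. The means were 23.4 ± 7.99 (SD, n = 13) and 49.8 ± 21.4 TPM (SD, n = 12), a ratio of 2.13, and the log2 difference was 1.01 (SE 0.22, limma adjusted p = 0.000867). Its size moved with the settings, from 0.57 with the GC index in the fit to 1.27 with Ptprc in the fit. In the 4 parental tumors of high GC index Smad7 averaged 15.3 TPM, and in the other 9 it averaged 27.0 TPM.

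The order of mean levels also differed. In parental tumors it ran Tgfb1, Smad2, Tgfbr2, Tgfbr1, Smad3, Smad7, Tgfbr3, Tgfb3, Tgfb2, and in resistant tumors Tgfb1, Smad7, Smad2, Tgfbr1, Tgfbr2, Smad3, Tgfb3, Tgfb2, Tgfbr3. Tgfb1 exceeded the next gene in 13 of 13 parental and 12 of 12 resistant tumors. Neighbors in the middle of the order could not be separated: Smad2 exceeded Tgfbr2 in 8 of 13 parental tumors, Tgfbr2 exceeded Tgfbr1 in 5 of 13, and Tgfb3 exceeded Tgfb2 in 5 of 12 resistant tumors. Tgfb2 exceeded Tgfbr3 in 12 of 12 resistant tumors.

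In culture, where the macrophage list summed to at most 1.95 TPM and the list of T and NK cell markers to at most 0.322 TPM, 2 of the 9 genes rose in the resistant line (Tgfb2 and Tgfbr1), 1 fell (Tgfbr3) and 6 did not pass the test. Over all 11201 genes tested, 6.15% were called higher and 8.04% lower. The median log2 difference was 0.21 over the 9 genes and -0.01 over all genes. Levels did not overlap between the lines in 4 of 9 genes, Tgfb2, Tgfb3, Tgfbr1 and Smad2, with only 2 parental libraries, and 33.6% of all genes tested did not overlap either. Of 2 fibroblast markers tested in culture 1 rose (Dcn, by 6.87), and the list summed to 31.1 to 58.4 TPM in parental and 252 to 828 TPM in resistant cultures. Of 2 leukocyte markers tested 1 rose (Laptm5, by 3.94), with list sums of 2.43 to 5.94 and 17.4 to 131 TPM, while Ptprc and Cd53 were too low to test. Their part in the results was not tested.

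Tgfb2 was 1.96 and 2.53 TPM in the parental cultures and 6.61, 7.13, 5.47, 5.19 and 7.10 TPM in the resistant ones. Every resistant library was higher, and the means differed by a ratio of 2.81. The log2 difference was 1.17 (SE 0.22, limma adjusted p = 0.00994), and without parental culture 1 it was 1.04 (adjusted p = 0.0612).

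Tgfbr1 was 11.7 and 16.1 TPM in parental and 24.8, 26.3, 26.4, 27.1 and 30.8 TPM in resistant cultures. Every resistant library was higher. The ratio of means was 1.95 and the log2 difference 0.93 (SE 0.18, limma adjusted p = 0.0091). The call was lost without parental culture 1 (0.71, adjusted p = 0.0605) and in 1 fit over all libraries (0.93, adjusted p = 0.213).

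Tgfbr3 was 2.97 and 9.01 TPM in parental cultures and 3.35, 0.368, 0.147, 0.215 and 0.361 TPM in resistant cultures. Resistant culture 1 lay between the parental libraries, and the other 4 were below 1 TPM. The log2 difference was -1.96 (SE 0.56, limma adjusted p = 0.0477). Tgfbr3 entered this test through the parental cultures, since only 1 of 5 resistant cultures reached 1 TPM, so the call is no independent support for a fall. It passed in 5 of 13 alternatives: it was -3.22 (adjusted p = 0.0637) with a pseudocount of 0.1, -2.62 (adjusted p = 0.0971) without parental culture 1, and -1.29 (adjusted p = 0.358) without parental culture 2. Leaving out resistant culture 1 gave -2.31 (adjusted p = 0.00399), and leaving out any of resistant cultures 2 to 5 gave adjusted p-values from 0.0838 to 0.0956.

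Smad2 was 26.1 and 23.2 TPM in parental and 29.5, 38.2, 36.4, 41.4 and 38.9 TPM in resistant cultures, with no overlap, and the log2 difference of 0.56 (SE 0.17, limma adjusted p = 0.0554) missed the threshold. It was 0.63 (adjusted p = 0.0179) without resistant culture 1. Tgfb3 was 8.10 and 8.17 TPM in parental and 10.4 to 19.2 TPM in resistant cultures, also with no overlap, with a log2 difference of 0.68 (SE 0.24, limma adjusted p = 0.0948). Smad7 was 31.6 and 27.8 TPM in parental and 28.3, 45.4, 57.7, 42.5 and 15.3 TPM in resistant cultures. The resistant libraries lay on both sides of the parental ones, and the log2 difference was 0.21 (95% interval -0.73 to 1.16, limma adjusted p = 0.78). Tgfb1 (0.16, adjusted p = 0.617), Tgfbr2 (0.11, adjusted p = 0.737) and Smad3 (0.02, adjusted p = 0.983) also did not pass.

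**Figure D3:**
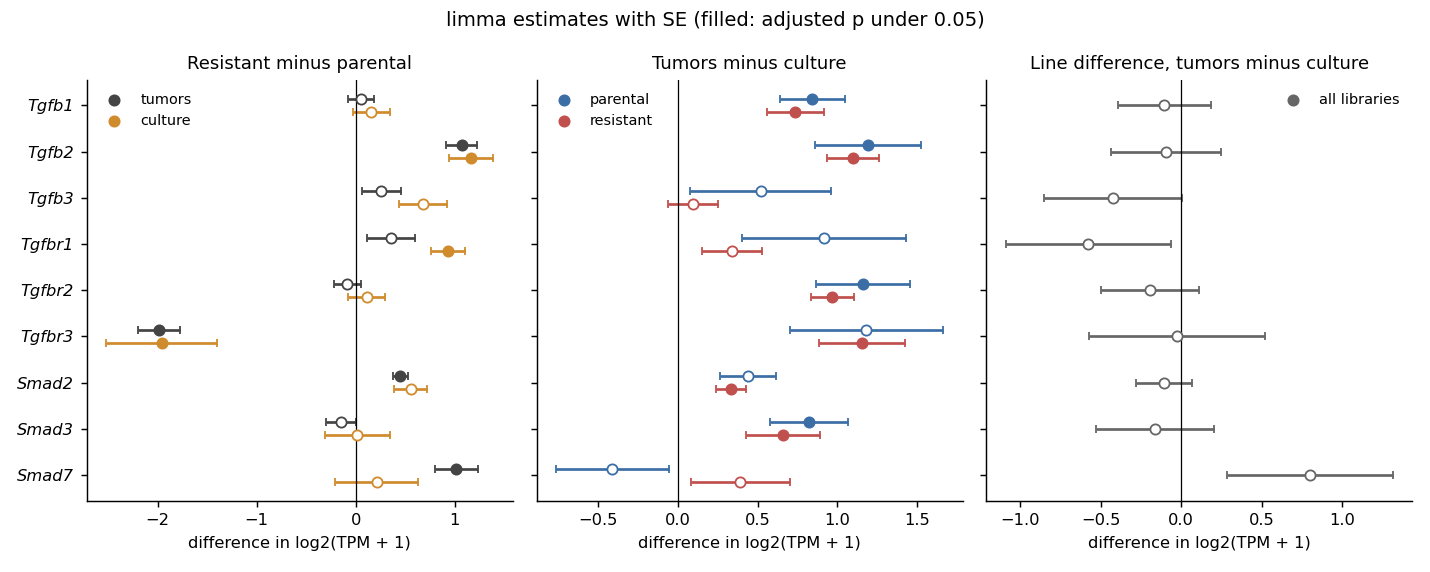
Differences in log2(TPM + 1) from limma with bars of 1 SE for the 9 genes: resistant minus parental in tumors and in culture (left), tumors minus culture in each line (middle) and the interaction (right); filled points passed an adjusted p of 0.05. The tumor and culture estimates of the line difference lie close for Tgfb2 (1.07 and 1.17), Tgfbr3 (-1.98 and -1.96) and Smad2 (0.45 and 0.56), although with a pseudocount of 0.1 the culture value of Tgfbr3 was -3.22.

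Whether the line difference itself differed between tumors and culture was tested with an interaction in 1 fit over the 32 libraries. None of the 9 genes passed with limma, and at an unadjusted p below 0.05 the count was also 0, while 2.4% of all 15061 genes were called higher and 1.61% lower. The difference of differences was -0.10 for Tgfb2 (95% interval -0.79 to 0.60), -0.03 for Tgfbr3 (-1.14 to 1.09) and -0.11 for Smad2 (-0.46 to 0.25). The Tgfbr3 value became 0.91 with a pseudocount of 0.1 and ran from -0.69 to 0.64 when 1 library at a time was left out. For Smad7 it was 0.80 (-0.25 to 1.85, limma adjusted p = 0.53), and for Tgfbr1 it was -0.58 (-1.62 to 0.47, adjusted p = 0.709). Without the 4 parental tumors of high GC index the Tgfbr1 value became -1.03 (adjusted p = 0.0494), the only gene of the 9 that passed in any of the 39 alternatives. The intervals are wide, since they rest on 2 parental cultures, and do not show that the line differences were equal.

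Tumors were compared with cultures of the same line. Tumor and culture libraries carry different series of sample titles, so the setting and the library series cannot be told apart. In the parental line 4 of the 9 genes were higher in tumors, none was lower and 5 did not pass, against 16.1% of 14348 genes called higher and 5.99% lower. Tgfb1 was 145 ± 28.3 TPM in tumors (SD, n = 13) and 76.8 and 82.0 TPM in culture, without overlap, a log2 difference of 0.84 (SE 0.20, limma adjusted p = 0.00561). Tgfb2 (1.19, adjusted p = 0.0137), Tgfbr2 (1.16, adjusted p = 0.0077) and Smad3 (0.82, adjusted p = 0.0212) were the other genes that were higher. Levels did not overlap for these 4 and for Smad2, which is 5 of 9, beside 28.6% of all genes tested. Without the 4 tumors of high GC index 8 genes were called, with Smad7 the exception, whereas none was called without parental culture 1 and only Tgfbr2 without parental culture 2.

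In the resistant line 6 of the 9 genes were higher in tumors than in culture, none was lower and 3 did not pass, against 35.3% of 12312 genes called higher and 15% lower. Tgfb2 was 9.19 to 19.9 TPM in tumors and 5.19 to 7.13 TPM in culture, without overlap, a log2 difference of 1.10 (SE 0.16, limma adjusted p = 1.06e-05). Tgfbr2 was 22.6 to 42.8 TPM in tumors and 12.0 to 15.4 TPM in culture, again without overlap, a log2 difference of 0.97 (SE 0.14, adjusted p = 5.60e-06). These were the 2 of 9 genes without overlap, beside 21.9% of all genes tested. Tgfb1 (0.74, adjusted p = 0.00191), Tgfbr3 (1.15, adjusted p = 0.00132), Smad2 (0.33, adjusted p = 0.0062) and Smad3 (0.66, adjusted p = 0.0236) were also higher. Tgfbr3 entered this test through the tumors, since every resistant culture except culture 1 was below 1 TPM. Its call is thus no independent support for a higher level in tumors. In the same comparisons 4 of 4 leukocyte and 6 of 6 macrophage markers rose in both lines, and endothelial markers in 5 of 6 (parental) and 6 of 6 cases (resistant), and their part in these differences was not tested.

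Scaling mattered for tumors against culture. Of all calls, 72.9% were higher in parental tumors and 70.2% in resistant tumors; quantile normalization made these 47.9% and 38.9%, and moved the median log2 difference of all genes from 0.21 to -0.09 and from 0.18 to -0.13. Median-of-ratios scaling gave 58.98% in the resistant line with a median of 0.06. Under quantile normalization 2 of the 9 genes were called in the parental line (Tgfb1 at 0.83 and Tgfbr2 at 0.93) and 3 in the resistant line (Tgfb1 at 0.71, Tgfb2 at 0.65 and Tgfbr2 at 0.70), and Tgfbr3 in the resistant line was at -0.03. Tgfb1 and Tgfbr2 thus were higher in tumors of both lines under each of these scalings. In both line comparisons the called genes of the 9 kept their directions under each of these scalings.

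The other genes of the pathway were taken from 5 lists, whose counts in tumors stand beside the 16.3% of all genes called higher and 13.9% called lower. In the 11 tested genes of ligand latency and activation, 2 were higher in resistant tumors, 1 was lower and 8 did not pass (median 0.23). With array weights 5 were higher and 1 lower, and 5 were higher and 2 lower with the GC index in the fit or without the 4 parental tumors of high GC index. Itgav, the integrin subunit that binds latent ligand, rose from 67.1 ± 17.1 (SD, n = 13) to 93.0 ± 11.7 TPM (SD, n = 12; log2 difference 0.50, limma adjusted p = 0.00261), and its partner Itgb8 rose by 0.53 (adjusted p = 0.0216). The Itgb8 value was 0.34 (adjusted p = 0.154) without the 4 parental tumors of high GC index. Ltbp4, a latent TGF-beta binding protein of the matrix, fell from 213 ± 59.1 to 122 ± 25.4 TPM (-0.78, adjusted p = 6.52e-05). Ltbp1, its relative, averaged 25.4 ± 15.1 TPM over the parental and 18.3 ± 5.25 TPM over the resistant tumors (-0.17, adjusted p = 0.729), and without the same 4 tumors it was -0.68 (adjusted p = 0.0159).

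In culture, beside 6.15% of all genes called higher and 8.04% lower, the latency list gave 1 higher, 2 lower and 5 not passed of 8 (median -0.08). Ltbp1 was 60.7 and 74.3 TPM in parental cultures and 11.5, 4.78, 4.52, 2.73 and 2.89 TPM in resistant cultures. Every resistant culture was far below both parental ones, with culture 1 the highest of them. The log2 difference was -3.59 (SE 0.42, limma adjusted p = 0.00115). The line difference of Ltbp1 was nearer to 0 in tumors, and the interaction was 3.42 (SE 0.74, adjusted p = 0.0034), or 3.28 (adjusted p = 0.0794) without parental culture 2. Fbn1, the fibrillin that anchors latent complexes, rose in culture by 1.43 (adjusted p = 0.01, but 0.113 and 0.0814 without parental culture 1 or 2), and Thbs1, a ligand activator, fell by 1.39 on the log2 scale (adjusted p = 0.0419, passing in 6 of 14 alternatives).

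Of 8 co-receptors and receptor regulators, 1 was higher in resistant tumors, 2 were lower and 5 did not pass (median 0.07, or -0.33 with the GC index in the fit). Eng, the endoglin co-receptor, rose from 33.5 ± 6.26 to 46.7 ± 4.98 TPM (log2 difference 0.48, limma adjusted p = 0.000454), while none of 6 endothelial markers was called. Acvrl1, a type I receptor of endothelial cells, fell by 0.73 on the log2 scale (adjusted p = 0.0104), and Ppp1r15a, a phosphatase subunit that Smad7 recruits to the receptor, fell by 0.68 (adjusted p = 0.0379, passing in 20 of 35 alternatives). Without the 4 parental tumors of high GC index these values were -0.55 (adjusted p = 0.0642) and -0.33 (adjusted p = 0.312). In culture Eng rose by 1.90 (adjusted p = 0.0322, passing in 9 of 14 alternatives), and Cd109, a membrane protein that dampens TGF-beta receptor signaling, fell from 24.7 ± 3.12 (SD, n = 2) to 1.44 ± 0.996 TPM (SD, n = 5; -3.50, adjusted p = 0.00112). In tumors Cd109 was 2.13 TPM and 1.58 TPM on average, and the interaction was 3.31 (adjusted p = 1.56e-05).

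Among the other SMADs, 2 of 4 tested were higher in resistant tumors and none was lower. Smad9, of the BMP branch, was too low to be tested there, at 0.557 to 1.34 TPM over parental and 0.109 to 0.725 TPM over resistant tumors, with 11 of 12 resistant tumors under the lowest parental one, and without a filter 1 gene of the list was called lower. Smad4, the common partner of the activated SMADs, rose from 75.4 ± 18.5 to 105 ± 8.42 TPM (log2 difference 0.50, SE 0.09, limma adjusted p = 0.000221), and Smad1, also of the BMP branch, rose by 0.34 (adjusted p = 0.00642). In culture 1 rose (Smad1, 0.92, adjusted p = 0.0301, passing in 9 of 14 alternatives), 1 fell (Smad9, -0.93, adjusted p = 0.0481, passing in 3 of 13) and 3 did not pass. Smad4 was 60.03 and 54.7 TPM in parental and 61.9, 92.5, 78.9, 94.6 and 81.8 TPM in resistant cultures (0.49, adjusted p = 0.0977), and its interaction was 0.01 (adjusted p = 0.996).

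Of 12 SMAD regulators 5 were higher in resistant tumors, none was lower and 7 did not pass (median 0.28), while 9 were higher with Ptprc in the fit and 4 without the 4 parental tumors of high GC index. Zfyve9, the SARA anchor that holds Smad2 and Smad3 at the receptor, rose from 20.5 ± 4.33 to 31.5 ± 3.94 TPM (log2 difference 0.62, limma adjusted p = 9.19e-05). The corepressor Tgif2 (0.50, adjusted p = 0.000131), the deubiquitinase Usp15 (0.52, adjusted p = 0.000316) and the SMAD corepressor Skil (0.54, adjusted p = 0.00138) rose as well. In culture 4 of 12 rose and none fell (median 0.29): Tgif2 by 1.28 (adjusted p = 0.00479), the ubiquitin ligase Smurf1 by 0.996 (adjusted p = 0.00532), Zfyve9 by 0.89 (adjusted p = 0.0103) and Usp15 by 0.82 (adjusted p = 0.0473, passing in 6 of 14 alternatives). The first 3 of these each lost the call only without parental culture 1, at adjusted p-values of 0.0588, 0.054 and 0.0646.

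Of 20 tested target genes, 7 were higher in resistant tumors, 1 was lower and 12 did not pass (median 0.21). Tnc, the matrix protein tenascin C, rose from 36.6 ± 8.40 to 78.5 ± 19.2 TPM (log2 difference 1.07, limma adjusted p = 1.14e-06), Col1a2, a collagen I chain, rose by 0.98 (adjusted p = 0.0109), and the cell cycle inhibitor Cdkn1a fell by 0.55 on the log2 scale (adjusted p = 0.00468). With the GC index in the fit Col1a2 was at 0.81 (adjusted p = 0.0531) and Cdkn1a at -0.29 (adjusted p = 0.064). Over 35 alternatives Tgfbi lay between -0.56 and -0.22 on the log2 scale and passed in 4, 2 of them with 1 tumor left out. With all tumors in the fit it was 105 ± 45.3 and 74.0 ± 22.4 TPM (-0.44, limma adjusted p = 0.088). In the same tumors 2 of 5 pericyte markers rose, and 2 of 5 fibroblast markers did (Dcn and Dpt), whereas the other 3 were at -0.28 (Pdgfra), -0.60 (Lum) and -0.28 (Pi16) without passing and the median of the list was -0.28. The fibroblast list summed to 86.9 to 781 TPM over parental and 263 to 747 TPM over resistant tumors, and their part was not tested.

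In culture 4 of 15 tested targets were higher in the resistant line, 1 was lower and 10 did not pass (median 0.26). Tnc was 0.170 to 0.459 TPM over the 2 parental and 1.43 to 4.68 TPM over the 5 resistant cultures. All resistant cultures were higher. The log2 difference of 1.75 (SE 0.37, limma adjusted p = 0.0151) was short of the threshold without parental culture 1 (adjusted p = 0.126) or 2 (adjusted p = 0.0856). Tnc entered this test through the resistant cultures alone, as neither parental culture reached 1 TPM. The AP-1 gene Junb (1.24, limma adjusted p = 0.0045) and the transcription factor Snai1 (0.97, adjusted p = 0.00652) rose, and its relative Snai2 fell by 1.63 on the log2 scale (adjusted p = 0.00546), each short of the threshold when either parental culture was left out, with adjusted p-values from 0.0537 to 0.0695. Tgfbi stayed under 1 TPM in all cultures and was not tested there.

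Between tumors and culture, 15 of 21 targets were higher in tumors and none lower in the parental line, beside 16.1% and 5.99% of all genes. In the resistant line 17 of 20 were higher and 2 lower, beside 35.3% and 15%. Quantile normalization left 12 higher and 1 lower, and 16 higher and 0 lower. Tgfbi rose by 6.55 in the parental and by 5.62 in the resistant line, and Tnc by 4.82 and 4.13. Tgfbi in both lines and Tnc in the parental line were under 1 TPM in every culture and entered these tests through the tumors alone. Their calls, and those of other listed genes under 1 TPM in culture, are no independent support for a rise. Ltbp1 was at -1.70 (limma adjusted p = 0.11) in the parental line and rose by 1.72 (adjusted p = 8.13e-06) in the resistant line. Latency genes were higher in 6 of 11 and 8 of 11 cases and lower in none, and SMAD regulators in 2 of 12 and 4 of 12. Pericyte markers were also higher in tumors, 5 of 6 in the parental and 6 of 6 in the resistant line, as were 2 of 5 and 3 of 5 fibroblast markers, and their part was not tested.

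**Figure D4:**
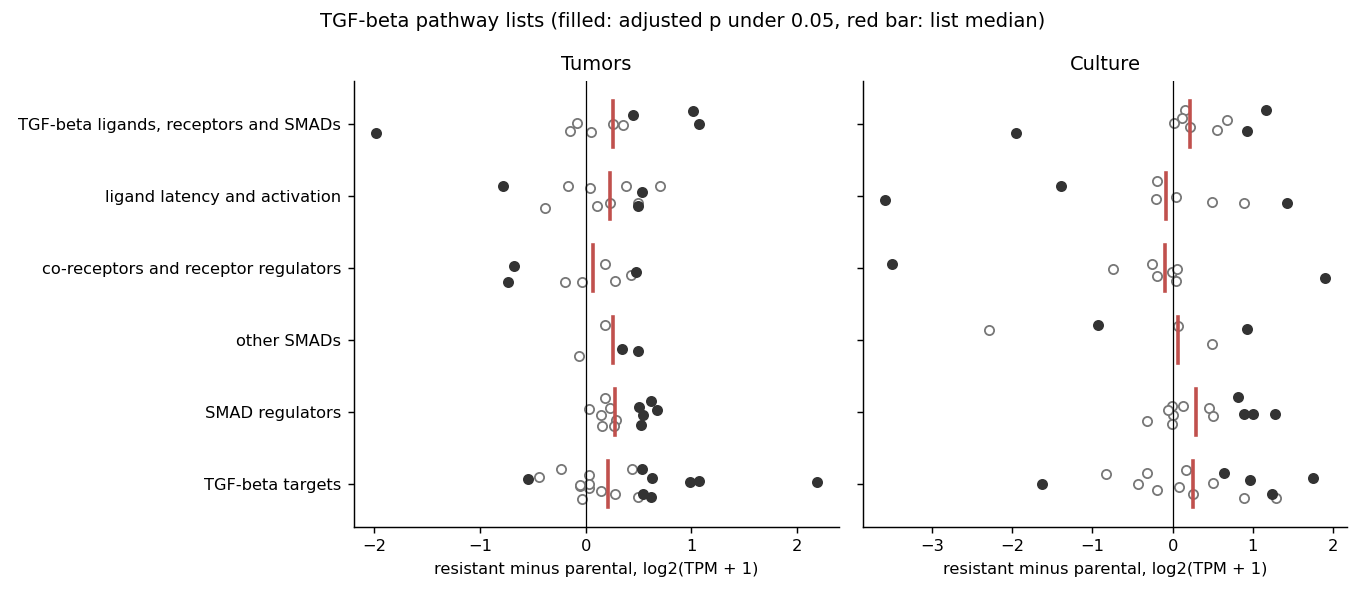
Difference in log2(TPM + 1) between the resistant and parental lines for each tested gene of the 6 lists (points), in tumors (left) and in culture (right), with the list median as a red bar; filled points passed an adjusted p of 0.05. The 2 points farthest to the left in culture are Ltbp1 at -3.59 and Cd109 at -3.50.

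How the 9 genes varied among tumors of 1 line was described against the GC index and against Ptprc, in 36 relations adjusted together. Over the 12 resistant tumors, 4 of 9 genes passed for the GC index by a permutation test of 100000 resamples. The index is itself made from gene levels, and 21.7% of all genes tested had an r at least as far from 0 as the weakest of these 4, Smad7. Tgfb1 (Pearson r = 0.883, adjusted permutation p = 0.00156; Spearman rho = 0.769, adjusted p = 0.0261) and Tgfbr2 (r = 0.867, adjusted permutation p = 0.00216; rho = 0.881, adjusted p = 0.00522) were high in tumors of high index. Tgfbr1 (r = -0.908, adjusted permutation p = 0.00156; rho = -0.860, adjusted p = 0.00522) and Smad7 (r = -0.740, adjusted permutation p = 0.0314; rho = -0.734, adjusted p = 0.044) were low in them. Without the 2 tumors farthest from the median index, r was 0.751, 0.806, -0.900 and -0.665. Over the 9 parental tumors of lower index, none of the 9 relations passed the exact permutation test after adjustment. There r was 0.776 for Tgfb1, 0.588 for Tgfbr2, -0.622 for Tgfbr1 and -0.673 for Smad7, with the signs seen in resistant tumors. Without the 2 farthest of these parental tumors the values were 0.542, 0.171, -0.631 and -0.434. The 4 parental tumors of high index form a cluster of their own, so no value over all 13 is given.

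Against Ptprc, Tgfbr1 passed in both lines. Its r was 0.932 over 13 parental tumors (adjusted permutation p = 0.00036; rho = 0.846, adjusted p = 0.00522) and 0.796 over 12 resistant tumors (adjusted permutation p = 0.0112; rho = 0.874, adjusted p = 0.00522). Tgfb3 passed in parental tumors (r = 0.781, adjusted permutation p = 0.0116; rho = 0.802, adjusted p = 0.0115). Without the 2 farthest tumors r was 0.855, 0.696 and 0.817. Of all genes tested, 4.29% had an r with Ptprc at least as far from 0 as Tgfb3 in parental tumors, and 1.63% as Tgfbr1 in resistant tumors. The 4 parental tumors of high GC index also had the lowest Ptprc, 14.5 to 30.9 TPM against 31.5 to 53.7 TPM in the other 9. Within those 9, r was 0.622 for Tgfbr1 (adjusted exact permutation p = 0.336 over 9 genes) and 0.655 for Tgfb3 (adjusted exact permutation p = 0.336), so neither relation held within them at this threshold.

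**Figure D5:**
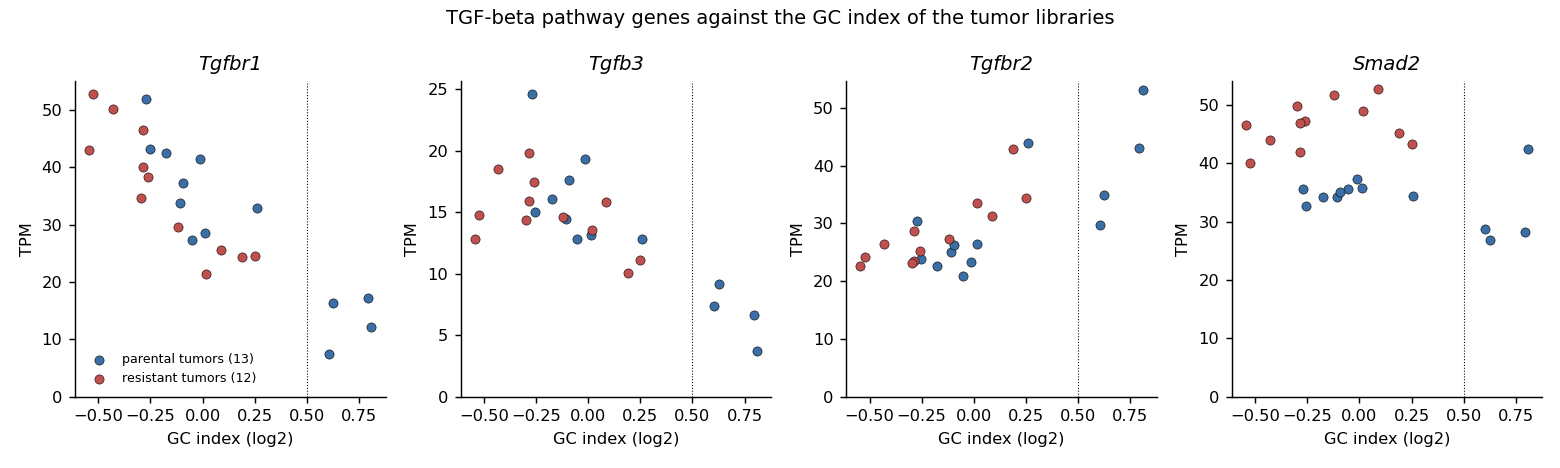
TPM of Tgfbr1, Tgfb3, Tgfbr2 and Smad2 (vertical axes, linear) against the GC index (horizontal axes, log2) in the 13 parental and 12 resistant tumors; each point is 1 tumor and the dotted line marks an index of 0.5. The 4 parental tumors right of the line have Tgfb3 at 3.71 to 9.20 TPM and Tgfbr1 at 7.50 to 17.2 TPM.

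Each gene was also matched with the genes whose level followed it most closely over the 25 tumors after subtraction of the line mean, as a description without a test. Tgfb1 was most like Sdc1 (r = 0.88), Tgfbr2 like Psap (0.95), Tgfbr1 like Wnk1 (0.94), Tgfb3 like Ep400 (0.95) and Smad7 like Cebpg (0.83). Over the 21 tumors without the 4 of high GC index these values were 0.89, 0.92, 0.84, 0.82 and 0.83. The called genes Tgfb2 (Top3a, r = 0.73, and 0.80 over 21) and Tgfbr3 (Dhx29, 0.74, and 0.48 over 21) had less similar neighbors, as did Smad3 (Cxx1c, 0.72, and 0.74 over 21). The tumors share line, host and sequencing, and such values say nothing of shared control.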

How the data were processed

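Poly(A) RNA was sequenced from 25 tumors and 7 cultures, after Qiagen extraction with DNase and KAPA RNA HyperPrep library preparation per the labels' protocols. The authors deposited 1 table of TPM values for 22329 gene symbols, and each column sums to 1000000. The submitters' processing notes name STAR and GRCh38, a human build, although the table carries mouse symbols; the quantifier and annotation were not given in the sources used here. Read totals are unknown, so precision rests on the spread between libraries.

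The members and gene lists were chosen with earlier results of these data known. For each comparison, log2(TPM + 1) of the libraries compared was fitted by limma 3.58.1 (R 4.3.3; empirical Bayes with a trend on intensity; two-sided tests). A gene entered when it reached 1 TPM in a number of libraries no smaller than the smaller group, or in 2 libraries for the interaction over the 4 groups. The p-values of all genes in a fit were adjusted by Benjamini-Hochberg, with calls below 0.05. Named were all 9 genes, up to 4 called genes of each other list with the lowest adjusted p, Tgfbi, Ltbp1 and Smad4 whatever their result, and the genes most alike each member (3 were found, the first is printed). Some genes that this rule names are not reported here, and the target list is counted without them. The GC index is the median, over genes whose transcripts are GC-rich, of the log2 level relative to the gene's tumor mean, less the same median over GC-poor genes, among genes averaging at least 5 TPM in tumors. Relations across tumors used two-sided permutation tests in Python 3.11.15 with scipy 1.17.1, exact for 9 tumors. The relation to the GC index was planned over all parental tumors and was computed over 9, since 4 formed a cluster. Promoter windows come from RefSeq.

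Settings varied one at a time were the pseudocount (0.1), the low-value filter (none, or 5 TPM), the scaling (quantile, median of ratios), array weights, the covariates GC index and Ptprc, a joint fit of all libraries, and single libraries or the 4 tumors of high GC index left out.

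On simulated data the fit recovered 93% of genes changed 2-fold in the tumor line comparison (12227 genes). In the culture line comparison it recovered 61% (11110 genes). For tumors against culture it recovered 44% in the parental (13964 genes) and 88% in the resistant line (12219 genes). For the interaction it recovered 45% (14038 genes). Only genes of higher mean level were changed, and noise was drawn independently for each gene. These rates therefore do not cover low genes, such as Tgfb2 and Tgfbr3 in the line comparisons of tumors and of cultures.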

Additional observations from a re-analysis of the deposited data

Results flagged for a closer look

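A library far from the others of its group was sought only among the 5 resistant cultures. The tumors and the parental cultures were not searched in this way. Among the 12 tests, each of 1 gene, 2 pointed to resistant culture 1, and chance would give about 1 in 20 tests. Its Tgfbr3 was the highest of the 5 resistant cultures at 3.35 TPM, and its Ltbp1 the highest at 11.5 TPM. In both cases it was the resistant culture nearest to the parental cultures. The cause was not tested.

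For 9 pathway genes the line difference was not the same in tumors as in culture, by the limma interaction term (log2 scale, tumors less culture). In the latency list 2 of 11 tested genes were higher and 1 lower. Among 8 co-receptors and receptor regulators 1 was higher and 1 lower, and among 21 targets 1 and 1. Of 12 SMAD regulators 0 were higher and 2 lower, and of 5 other SMADs 0 were called. Over all 15061 genes tested, 2.4% were called higher and 1.61% lower. Positive values were found for Ltbp1 (3.42), Cd109 (3.31), Thbs1 (1.77) and Snai2 (1.67). Negative values were found for Eng (-1.42), Fbn1 (-1.32), Junb (-1.29), Smurf1 (-0.84) and Tgif2 (-0.78). Cd109 passed in 39 of 39 alternatives. The others were lost in at least 1 alternative, 38 of 39 passing for Ltbp1, Eng and Junb, 37 for Thbs1, 36 for Smurf1 and Snai2, 34 for Tgif2 and 33 for Fbn1. Each of these 8 lost the call when 1 or both of the parental cultures were left out in turn.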

How the results depend on the processing

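In tumors the 4 called genes (Tgfb2, Tgfbr3, Smad2, Smad7) kept direction and call under all 35 alternatives. With Ptprc as a covariate 5 of the 9 genes were called higher, and Tgfb1 turned to -0.043 and Ltbp1 to 0.11. With the GC index as a covariate Tgfb3 turned to -0.16, Tgfbr1 to -0.22 and Tgfbr2 to 0.20, and without the 4 parental tumors of high GC index to -0.11, -0.10 and 0.088. Tgfbr2 was 0.034 with array weights. Leaving out 1 tumor at a time moved Tgfb1 from -0.013 to 0.10. In culture 0 of the 9 genes were called lower with a pseudocount of 0.1, without a filter or with a filter at 5 TPM, which Tgfbr3 did not reach. Leaving out 1 culture at a time gave 0 to 3 genes called higher, 0 to 1 lower and 578 to 2116 of all genes called (1590 with all libraries), with Tgfbr2 from -0.073 to 0.30 and Smad3 from -0.14 to 0.16. For parental tumors against culture 2 genes were called higher under quantile normalization, 8 with array weights and 8 without the 4 tumors of high GC index. Leaving out 1 library gave 0 to 5, and 1406 to 3602 of all genes (3169 with all libraries). For resistant tumors against culture quantile normalization gave 3, with Tgfb3 at -0.21, Tgfbr3 at -0.035 and Bambi at -0.23, and median-of-ratios scaling put Tgfb3 at -0.020. For the interaction, array weights called 1395 of all genes (604 in the fit as reported) and put Tgfbr3 at 0.16. Tgfbr3 was 0.91 with a pseudocount of 0.1, Tgfb2 0.11 under quantile normalization and Smad4 -0.054 under median-of-ratios scaling. Without the 4 tumors 1 gene was called lower. Leaving out 1 library gave 242 to 714 genes, Tgfb2 from -0.22 to 0.031, Tgfbr3 from -0.69 to 0.64 and Smad4 from -0.091 to 0.075. The causes of these changes were not tested. Where a parental culture was left out, the lone one was assumed to vary like the other group. No paired analysis was possible because the labels give no replicate numbers and the numbers used follow the order of deposition. The 36 relations stayed on the same side of the threshold with a pseudocount of 0.1. Low genes in culture, such as Tgfbr3 under 1 TPM, carry no known depth.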
